A study of Mus musculus with 6 samples.

Results

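The intervals described here are the accessible chromatin regions at promoters that the annotation gives to long noncoding RNA genes and not to protein-coding genes. They were chosen by position. The midpoint of the interval had to lie within 1 kb of a transcription start site (TSS) of a gene that the GENCODE vM1 annotation of the mouse genome mm9 types as lincRNA or processed_transcript, and more than 1 kb from every TSS of every protein-coding gene, on an autosome. Of 39768 intervals in the deposited table, 39117 were autosomal, 1764 of these lay near such a noncoding TSS, and 1230 of the 1764 also lay near a coding TSS. The remaining 534 intervals are the members, and they lie nearest to 307 genes. Of the members, 34 also lay within 1 kb of a TSS of a gene of some other type. By gene type, 284 members belong to 151 lincRNA genes and 250 to 156 processed_transcript genes, and the type antisense, which the rule also names, has 0 genes in this annotation. Accessibility was measured by ATAC-seq, in which the Tn5 transposase cuts exposed DNA, and the count of an interval, the number of fragment ends falling in it, grows as its chromatin is more open. The authors extended each end before counting, so that ends just outside an interval also count, which weighs most in short intervals. Both groups were mice 7 weeks old of the strain labelled C57BL/6 (backcrossed to C57BL/6N per the methods), H2A.Z-1 flox/flox and H2A.Z-2 flox/flox. The 3 CTL libraries, which the labels call WT, came from mice without Cre. The 3 H2A.Z dKO libraries came from mice that also carried HSA-Cre, a Cre recombinase under the promoter of human skeletal actin that acts in post-mitotic muscle fibers, so that other cells of the muscle keep the histone variant H2A.Z. Each library was made from 50000 nuclei. Nothing in the labels says that the libraries came from separate animals, so the p-values measure the spread between these libraries, which may be technical.

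Long noncoding RNAs are transcripts that are not translated, made by the same polymerase as messenger RNAs and often capped, spliced and polyadenylated like them. Some are known to act in the nucleus on neighboring genes or on nuclear bodies, others are host genes whose introns or exons carry small nucleolar RNAs or microRNAs, and for many no role is known. Their start sites can be open chromatin, as can those of coding genes, and H2A.Z is a histone variant found in the nucleosomes beside the TSS of active genes. The comparison asks how accessible these promoters are in muscle nuclei, and whether accessibility differs between nuclei from CTL muscle and from muscle whose fibers lack both H2A.Z isoforms.

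Reference sequences of 9 members are shown first, read from mm9 on the strand of the noncoding gene, since the levels and differences below refer to them. The first pair is short intervals, printed within windows of 100 bases with the interval in capitals. The interval of Gm17589, a lincRNA gene near Fosb, had the smallest p of all members and is printed in the window chr7:19886150-19886249. That of Gm9783 had the highest level per length, with the window chr19:5848089-5848188.
Gm17589, Peak_14662: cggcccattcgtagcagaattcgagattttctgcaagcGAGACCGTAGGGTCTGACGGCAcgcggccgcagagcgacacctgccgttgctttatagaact
Gm9783, Peak_37954: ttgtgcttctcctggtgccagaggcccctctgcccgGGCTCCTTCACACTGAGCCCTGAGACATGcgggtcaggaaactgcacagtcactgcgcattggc
The other 7 are the intervals themselves, or their central 300 bases where they are wider, with capitals on every match, on either strand, of GGGCGG, known as the GC box, of the CCAAT box, of TATAAA, the letters of many TATA boxes, and of CAGCTG, a form of the E-box that muscle transcription factors bind. They show a promoter of the nuclear RNA Malat1 (chr19:5802603-5802686), of the snoRNA host gene Dancr (chr5:74488946-74489245), of Oip5os1, the conserved noncoding RNA also called Cyrano (chr2:119419864-119420163), and of the microRNA host gene Mir17hg (chr14:115441320-115441619). They also show Trp53cor1, a noncoding gene beside Cdkn1a (chr17:29215868-29216167), Nctc1, a muscle transcript of the H19 locus (chr7:149744445-149744646), and 2310065F04Rik, which RefSeq lists under the synonym linc-Myh and which lies among the myosin heavy chain genes (chr11:66933041-66933269).
Malat1, Peak_37943: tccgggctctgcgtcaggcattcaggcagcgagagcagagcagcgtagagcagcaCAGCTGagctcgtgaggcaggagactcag
Dancr, Peak_10666: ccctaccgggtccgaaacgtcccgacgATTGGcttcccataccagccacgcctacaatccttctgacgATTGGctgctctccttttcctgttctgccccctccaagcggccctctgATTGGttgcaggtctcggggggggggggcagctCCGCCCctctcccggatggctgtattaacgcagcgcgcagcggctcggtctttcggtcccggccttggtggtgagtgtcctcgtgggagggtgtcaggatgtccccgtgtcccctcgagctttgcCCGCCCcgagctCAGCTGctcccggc
Oip5os1, Peak_4120: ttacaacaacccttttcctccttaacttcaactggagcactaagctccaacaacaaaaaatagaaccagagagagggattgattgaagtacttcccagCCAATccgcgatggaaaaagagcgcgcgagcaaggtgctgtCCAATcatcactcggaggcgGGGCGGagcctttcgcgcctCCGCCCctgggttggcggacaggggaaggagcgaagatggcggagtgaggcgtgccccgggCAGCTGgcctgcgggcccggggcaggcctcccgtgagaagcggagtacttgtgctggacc
Mir17hg, Peak_31386: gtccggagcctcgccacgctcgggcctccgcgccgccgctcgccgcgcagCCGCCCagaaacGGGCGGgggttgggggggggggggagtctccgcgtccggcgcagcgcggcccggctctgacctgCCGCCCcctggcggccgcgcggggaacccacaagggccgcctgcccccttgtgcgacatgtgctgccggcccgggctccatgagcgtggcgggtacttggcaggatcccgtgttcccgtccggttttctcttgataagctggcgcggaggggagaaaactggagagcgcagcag
Trp53cor1, Peak_35192: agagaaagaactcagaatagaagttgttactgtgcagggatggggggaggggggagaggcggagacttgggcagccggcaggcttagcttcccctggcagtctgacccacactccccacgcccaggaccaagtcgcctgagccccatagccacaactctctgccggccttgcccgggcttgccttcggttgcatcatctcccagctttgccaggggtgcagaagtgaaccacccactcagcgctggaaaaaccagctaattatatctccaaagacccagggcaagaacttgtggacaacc
Nctc1, Peak_17056: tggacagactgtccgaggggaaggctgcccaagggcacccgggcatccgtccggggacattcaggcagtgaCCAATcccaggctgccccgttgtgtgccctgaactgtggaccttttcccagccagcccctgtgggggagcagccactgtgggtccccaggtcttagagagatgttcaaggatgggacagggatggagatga
linc-Myh, Peak_24748: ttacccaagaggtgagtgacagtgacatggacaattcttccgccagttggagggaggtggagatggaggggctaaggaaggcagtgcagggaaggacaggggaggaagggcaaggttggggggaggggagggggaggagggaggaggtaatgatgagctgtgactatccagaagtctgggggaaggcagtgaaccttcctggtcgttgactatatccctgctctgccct
The window of Dancr holds 2 GC boxes, 3 CCAAT boxes and 1 CAGCTG, and that of Oip5os1 holds 2, 2 and 1. The Mir17hg window holds 3 GC boxes, Malat1 1 CAGCTG and Nctc1 1 CCAAT, and the windows of Trp53cor1 and linc-Myh hold none of these letters.

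The 6 libraries hold 3520008 to 6117245 counts over all intervals. The floxed segment of H2afz (H2A.Z-1, exons 2 to 4) overlaps 2 intervals with summed counts of 79, 69 and 33 in CTL and 57, 52 and 64 in H2A.Z dKO, and that of H2afv (H2A.Z-2, exons 4 to 5) overlaps 0, so the counts do not separate the groups by genotype and the second group is the libraries labelled H2A.Z dKO throughout. Promoter intervals were present for 11 of 14 muscle fiber markers, 0 of 4 satellite cell markers, 4 of 6 endothelial markers, 0 of 6 macrophage markers and 4 of 6 fibroblast markers. The summed muscle fiber level ranged from 533.6 to 664 CPM (counts scaled to the library total) in CTL and from 517 to 675 in H2A.Z dKO, the endothelial sum from 55.9 to 68.9 and from 46.0 to 50.9, and the fibroblast sum from 77.2 to 94.8 and from 93.6 to 100.5. Their part in the results below was not tested. H2A.Z dKO replicate 1 stood apart, with a median log2 deviation from the mean of the 6 libraries of 0.087 at promoters of protein-coding genes and -0.11 at intergenic intervals, against -0.038 and -0.035, and 0.084 and 0.058, in replicates 2 and 3. At the long noncoding RNA promoters this median was 0.020 in replicate 1, 0.0091 in replicate 2 and 0.0043 in replicate 3, and it was 0.021, -0.0070 and -0.014 in the CTL libraries. Over all intervals the median was -0.012, 0.015 and 0.0050 in H2A.Z dKO replicates 1, 2 and 3. A median near 0 can hold intervals that deviate in opposite directions. Single members did so in replicate 1, upward at Dleu2 and downward at Peak_3386, as given below.

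**Figure D1:**
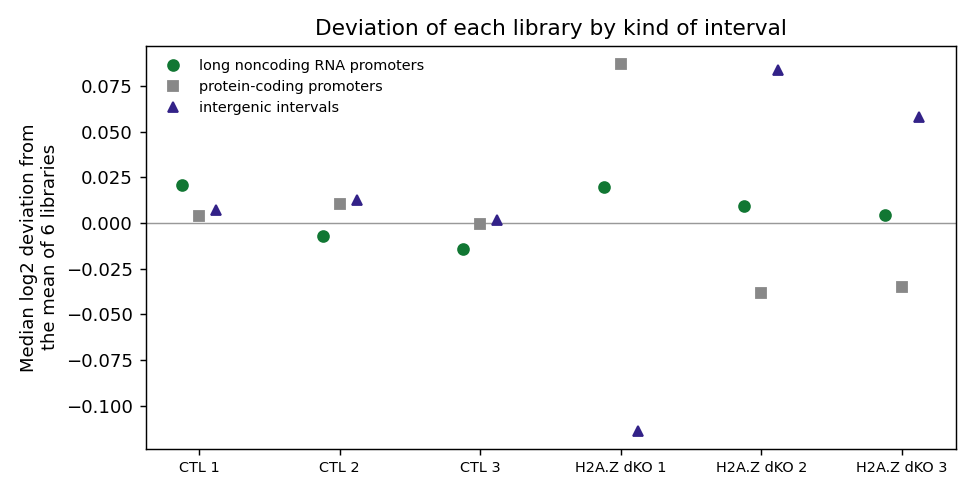
Median log2 deviation of each library (x axis) from the mean of all 6 libraries, over the 534 long noncoding RNA promoter intervals (circles), the 19582 promoter intervals of protein-coding genes (squares) and the 9170 intergenic intervals (triangles). H2A.Z dKO replicate 1 lies at 0.087 for coding promoters and at -0.11 for intergenic intervals, whereas the circles of all 6 libraries lie between -0.014 and 0.021. Over all intervals, which are not drawn, H2A.Z dKO replicate 1 lies at -0.012, and a median near 0 can hold intervals that deviate in opposite directions.

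Most annotated long noncoding RNA genes had no accessible interval at their start. Of 1232 autosomal lincRNA genes, 565 (45.9%) had an interval within 1 kb of a TSS, close to the 49.9% of 21418 protein-coding genes, but for the 619 lincRNA genes with no coding TSS that near the share was 23.4%. For processed_transcript genes it was 15.7% of 2437, and 7.93% of the 1955 away from coding promoters. The members gathered at the start site itself. In bins of 100 bp along the strand of the gene, the bin just upstream of the TSS held 113 intervals, the next bin upstream 66, and the bin just downstream 54. In all, 167 members (31.3%) had their midpoint within 100 bp of the TSS, 122 (22.8%) lay beyond 500 bp, 311 lay upstream and 223 downstream. A total of 117 members lay inside a protein-coding gene, 100 of them in a gene on the opposite strand and 17 in a gene on the same strand.

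**Figure D2:**
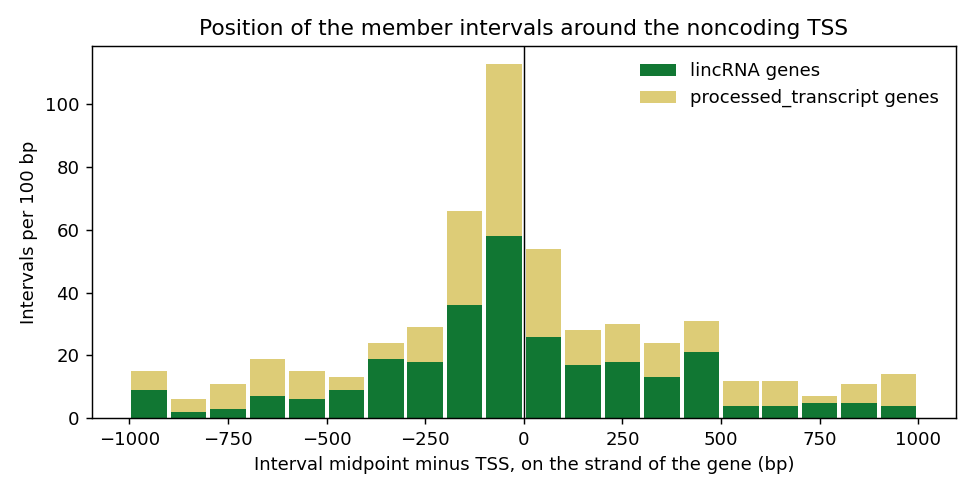
Number of member intervals in each 100 bp (y axis) by the distance of their midpoint from the TSS on the strand of the noncoding gene (x axis, bp), with lincRNA genes in green and processed_transcript genes in yellow. The tallest column, just upstream of the TSS, holds 113 of the 534 intervals.

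By width, base composition and level, the members lay between coding promoters and intergenic intervals. Their median width was 139 bp, against 196 bp at coding promoters and 93 bp at intergenic intervals, and 158 members (29.6%) were narrower than the 73 bp over which the peak caller spread each fragment end. In 300 bp around the midpoint, the median G+C content was 56.7% at members, 64.3% at coding promoters and 52.0% at intergenic intervals. The ratio of observed to expected CpG, which is high in CpG islands and low where methylated CpG has been lost, had a median of 0.547, 0.797 and 0.278, and of 0.513 over all intervals. It was above 0.6 at 43.6% of the members and 44.2% of all intervals. The 2 gene types differed in this. At lincRNA genes 160 of 284 intervals (56.3%) had a CpG ratio above 0.6, and at processed_transcript genes 73 of 250 (29.2%). These features were not tested, since intervals of a gene share their sequence and 124 members overlap another interval.

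Levels are given as RPKM, in which each count is scaled to the interval's width and to the library's total over the whole table. The median of the members was 123.7 RPKM (128 for lincRNA, 110.2 for processed_transcript genes), against 134 at coding promoters, 100.2 at intergenic intervals and 116 over all intervals. Single members ranged from 45.3 to 411 RPKM. In CTL the median member had 124, 121 and 122 RPKM in replicates 1, 2 and 3, and in H2A.Z dKO 118, 123 and 125, so the groups overlapped. The members held 1.26%, 1.23% and 1.23% of all counts in CTL and 1.23%, 1.25% and 1.25% in H2A.Z dKO. As means, these shares were 1.24% ± 0.0152 (SD, n = 3) and 1.25% ± 0.0132 (SD, n = 3). Their difference of 0.0082 percentage points was smaller than either SD. The difference was 0.017 without CTL replicate 1 and 0.016 without H2A.Z dKO replicate 1, but the SDs include the libraries left out and are no measure for these values.

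**Figure D3:**
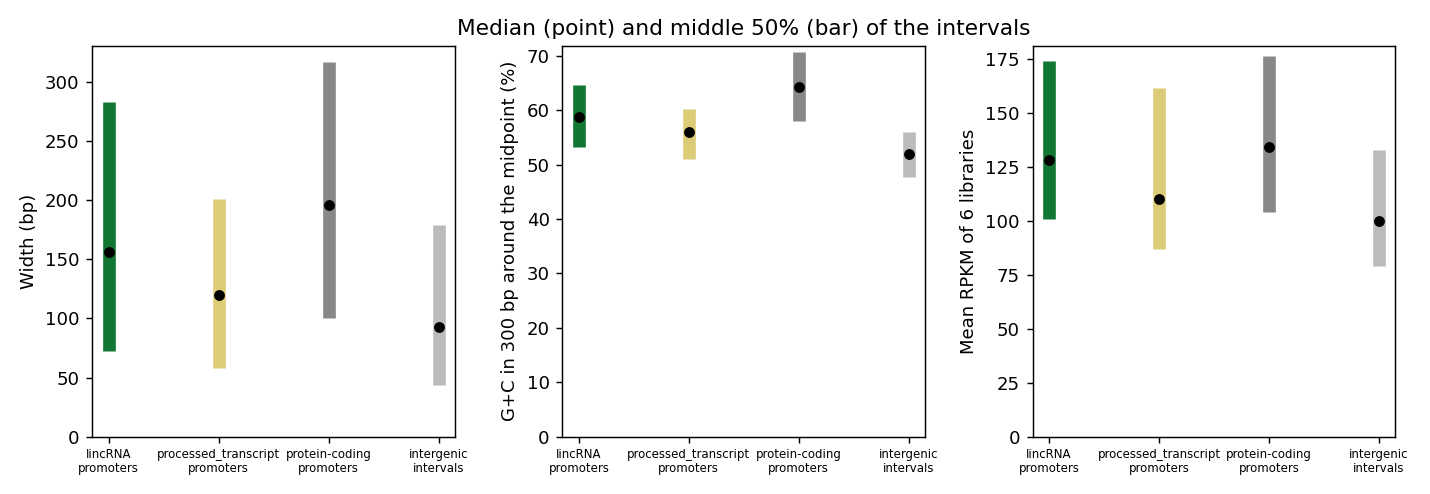
Width in bp, G+C percentage in 300 bp around the midpoint and mean RPKM of 6 libraries (y axes of the 3 panels) for lincRNA promoters (n = 284), processed_transcript promoters (n = 250), protein-coding promoters (n = 19582) and intergenic intervals (n = 9170). Points are medians and bars span the middle 50% of the intervals, and in each panel lincRNA promoters lie nearer to coding promoters than processed_transcript promoters do.

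The 8 members with the highest level, among the 440 with at least 20 counts in every library, were mostly short intervals, whose RPKM includes the extended ends from just outside them. Gm9783 (Peak_37954, chr19:5848125-5848153, 29 bp) led with 485, 365 and 421 RPKM in CTL replicates 1, 2 and 3 and 452, 371 and 371 in H2A.Z dKO. Its midpoint lies 369 bp upstream of the Gm9783 TSS and 2661 bp from the TSS of Neat1, the noncoding RNA that builds paraspeckles, which had no interval within 1 kb of its own TSS. Second was BC042782, a gene beside Jun (Peak_8215, chr4:94720105-94720155, 51 bp), with 410.3, 432 and 329 RPKM in CTL and 434, 401 and 324 in H2A.Z dKO. In both genes the groups overlapped, with log2 fold changes of -0.091 (SE 0.21) and -0.021 (SE 0.19). The next were 2410080I02Rik near Klf9 at a mean of 338 RPKM (28 bp), B230206L02Rik at 321 (33 bp) and C920006O11Rik at 314 (157 bp, centered on the TSS). The last 3 were 5730588L14Rik at 293, A230028O05Rik at 287 and Gm10433 at 284, which at 431 bp is the widest of the 8. Their log2 fold changes ranged from -0.21 to 0.21, and the 3 libraries of each group overlapped in all but 5730588L14Rik, where H2A.Z dKO (263, 294 and 259.9) lay below CTL (302, 333 and 308) with an unadjusted p of 0.266. Of the 8 genes, C920006O11Rik has another interval (Peak_20766) whose sequence matches 4 places in the genome, and its counts are uncertain.

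Several genes carried more than 1 interval. A single interval was found at 165 genes, 2 at 95 genes, and the most at Dleu2, the host gene of a pair of microRNAs, with 9 at its annotated start sites. The Dleu2 intervals had 88.7 to 243 RPKM. At Peak_30926 (chr14:62300168-62300526) CTL had 166, 179.9 and 172 RPKM and H2A.Z dKO had 295, 154 and 129.8, so H2A.Z dKO replicate 1 was the highest of all 6 libraries and replicates 2 and 3 the lowest. The same replicate was the highest of the 6 at 9 of the 9 Dleu2 intervals. Peak_30928, on the TSS, had 289.8, 245 and 245 RPKM in CTL and 302, 149.9 and 226 in H2A.Z dKO, a log2 fold change of -0.19 (SE 0.27). Peak_30929 had 189.8, 214 and 205 RPKM in CTL and 329.5, 246 and 216 in H2A.Z dKO, a log2 fold change of 0.39 (SE 0.19), which was 0.17 without H2A.Z dKO replicate 1. Peak_30930 had 165, 179 and 226 RPKM in CTL and 252, 167 and 183 in H2A.Z dKO, a log2 fold change of 0.11 (SE 0.20). The groups overlapped at Peak_30928 and Peak_30930, whereas at Peak_30929 every H2A.Z dKO library lay above every CTL library in RPKM but not after TMM scaling. The genes 2610035D17Rik, AI480526 and 4930555B11Rik had 6 intervals each. At 4930555B11Rik, 5 of the 6 overlap others of them and share fragment ends, and the widest (Peak_3386, chr2:57034110-57034638) had 149, 156 and 144 RPKM in CTL and 96.2, 141 and 144 in H2A.Z dKO, with H2A.Z dKO replicate 1 below the other 5 libraries. After TMM scaling every H2A.Z dKO library lay below every CTL library there. The log2 fold change was -0.24, and -0.090 without H2A.Z dKO replicate 1. At 2610035D17Rik, Peak_26476 matches 98 places in the genome and its counts are uncertain.

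No long noncoding RNA promoter passed the test between the groups across all intervals. With edgeR's quasi-likelihood test and Benjamini-Hochberg adjustment over 39768 intervals, 0 members passed an adjusted p of 0.05, as did 0 intervals of the whole table (percent called 0), and the smallest adjusted p of a member was 0.972. At an unadjusted p under 0.05, 26 members (4.87%) were higher in H2A.Z dKO, beside 2.64% of all intervals, and 8 members (1.5%) were lower, beside 2.31%. DESeq2 gave 0 members at an adjusted p of 0.05, and at an unadjusted one 15 higher (2.81%, beside 1.06% of all intervals) and 4 lower (0.749%, beside 0.842%). The 95% confidence interval of the fold change stayed within 2-fold in either direction for 495 members (92.7%, beside 91.4% of all intervals) and within 1.5-fold for 287 (53.7%, beside 49.6%). The median log2 fold change was 0.016 over the members and 0.012 over all intervals, with 290 members above 0 and 244 below, beside 20885 and 18883 of all intervals. It was -0.0066 for the 311 intervals upstream of the TSS and 0.051 for the 223 downstream. Without CTL replicate 2 the count of lower members was 5 (0.936%, beside 1.86% of all intervals). Without H2A.Z dKO replicate 2 it was 14 (2.62%, beside 2.63%) and without H2A.Z dKO replicate 3 it was 13 (2.43%, beside 2.87%). The count of higher members stayed between 18 and 31 over the 6 libraries left out in turn, 3.37% to 5.81% of the members beside 1.94% to 4.24% of all intervals. Without CTL replicate 1 the median log2 fold change of the members was 0.035. On counts scaled by TMM, edgeR's library factors, the 3 H2A.Z dKO libraries lay above all 3 CTL libraries at 32 members (5.99%, beside 5.22% of all intervals) and below them at 32 (5.99%, beside 5.63%).

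The 26 members that were higher at an unadjusted p belong to 21 genes, 6 of them overlap another interval, and their log2 fold changes range from 0.32 to 0.93. Their split by gene type was 8 of 284 lincRNA intervals (2.82%) and 18 of 250 processed_transcript intervals (7.2%), beside 2.64% of all intervals, so that the lincRNA share lay close to that of all intervals. In the column of the table where the authors list the group or groups in which an interval was found, 24 of the 26 are listed for H2A.Z dKO only. That listing was made from these libraries, so it is no separate evidence of direction. Among the 247 members listed for H2A.Z dKO only, 9.72% were higher at an unadjusted p, beside 5.15% of all intervals with that listing. The 8 lower members lie at 8 genes, with log2 fold changes from -0.91 to -0.33, and 4 of them are listed for CTL only. Among the 95 members listed for CTL only, 4.21% were lower at an unadjusted p, beside 7.76% of all intervals with that listing.

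**Figure D4:**
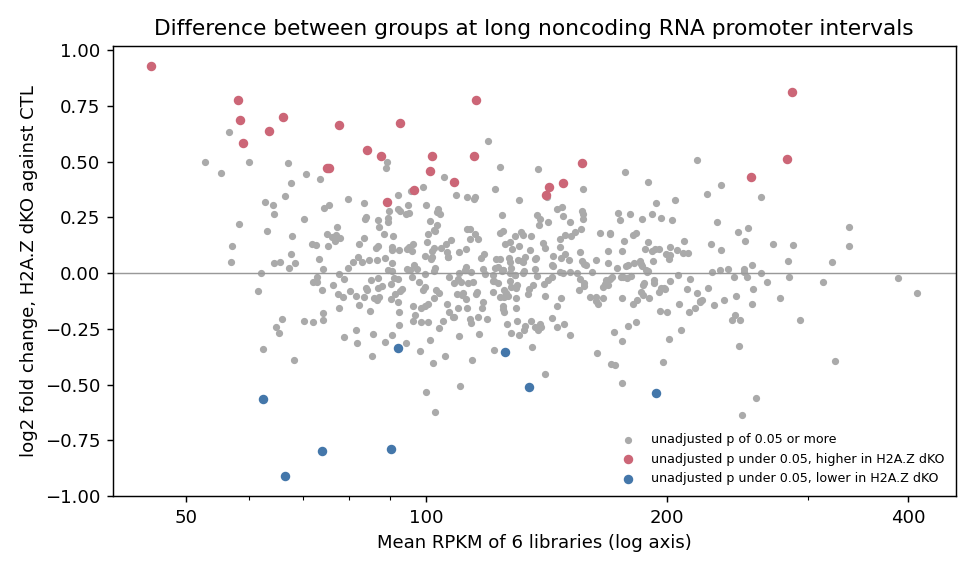
Log2 fold change of H2A.Z dKO against CTL (y axis) by mean RPKM of the 6 libraries (x axis, log scale) at the 534 members. Of the points with an unadjusted p below 0.05, the 26 red ones lie above 0 and the 8 blue ones below. Most grey points lie close to 0, and none of the 534 passed the adjusted threshold.

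By p, the first of the higher members was the interval of Gm17589 shown above (Peak_14662, chr7:19886190-19886211, 22 bp). Its midpoint lies 81 bp upstream of the TSS and 9194 bp from that of Fosb, a gene of the AP-1 transcription factor family. It had 32, 19 and 15 counts in CTL and 47, 35 and 43 in H2A.Z dKO, or 238, 187 and 194 RPKM in CTL and 364, 349.7 and 389 in H2A.Z dKO. The groups did not overlap, at 206 ± 27.7 and 368 ± 20.1 RPKM (SD, n = 3 each). The log2 fold change was 0.81 (SE 0.24, 95% confidence interval 0.32 to 1.31) at an unadjusted p of 0.00259 and edgeR's adjusted p of 0.972. Gm17589 has 3 further intervals. Peak_14661, at the TSS, had 37, 23 and 20 counts in CTL and 40, 33 and 50 in H2A.Z dKO, again without overlap and with a log2 fold change of 0.51 (SE 0.24), which was 0.33 without H2A.Z dKO replicate 3, while Peak_14663 and Peak_14664 farther upstream had log2 fold changes of 0.20 (SE 0.28) and 0.26 (SE 0.17) with overlapping groups.

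The next by p were 9930014A18Rik and Gm17242. The interval of 9930014A18Rik (Peak_32001, chr15:60654878-60654939) lies inside the coding gene Fam84b and had 97.6, 76.7 and 77.9 RPKM in CTL and 146, 149 and 145 in H2A.Z dKO, a log2 fold change of 0.78 (SE 0.23). The interval of Gm17242 (Peak_27811, chr12:81858905-81858996) had 46.2, 44.6 and 37.1 RPKM in CTL and 83.3, 59.7 and 77.9 in H2A.Z dKO, a log2 fold change of 0.78 (SE 0.26). In both, every H2A.Z dKO library lay above every CTL library, on counts of 12 to 53. The largest log2 fold change, 0.93 (SE 0.33), was at Gm5860 (Peak_8108), with only 9, 11 and 8 counts in CTL and 17, 23 and 18 in H2A.Z dKO. Gm5860 starts beside Gm11264, on the other strand, whose own interval (Peak_8107, chr4:81711733-81711896) had 59.8, 75.1 and 71.0 RPKM in CTL and 98.6, 101 and 101 in H2A.Z dKO, a log2 fold change of 0.55 (SE 0.20). At Gm13481 3 of 4 intervals were among the 26, beside 2.64% of all intervals, but Peak_3304 and Peak_3305 cover nearly the same bases. Peak_3304 counted 150, 77 and 69 in CTL and 170, 132 and 135 in H2A.Z dKO, and Peak_3305 152, 77 and 68 in CTL and 171, 132 and 135 in H2A.Z dKO. Those 2 therefore count the same fragment ends. The fourth, Peak_3307, 9 bp wide, counted 8, 11 and 7 in CTL and 10, 5 and 5 in H2A.Z dKO, with overlapping groups and a log2 fold change of -0.49 (SE 0.40).

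On the lower side, the interval of Gm15418 at its TSS (Peak_17208, chr8:11187721-11187776) had 114, 108 and 122 RPKM in CTL and 57.8, 54.9 and 85.3 in H2A.Z dKO, a log2 fold change of -0.79 (SE 0.26). Ppp4r1l-ps, a pseudogene locus (Peak_5268, chr2:173434275-173434345), had 111, 70.0 and 100.03 RPKM in CTL and 45.6, 65.0 and 53.3 in H2A.Z dKO, a log2 fold change of -0.80 (SE 0.27). Both are narrow (56 and 71 bp) with 14 to 48 counts per library, and in both the groups did not overlap. Gm16046, inside the coding gene Tcte2 (Peak_34736, chr17:13820571-13821117, 547 bp), had 433, 394 and 262 counts in CTL and 309, 300 and 314 in H2A.Z dKO. Per length it had 129, 156 and 136 RPKM in CTL and 96.2, 121 and 114 in H2A.Z dKO, with a log2 fold change of -0.35 (SE 0.12), the smallest difference of the 3 and the best counted.

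Many small nucleolar RNAs guide the chemical modification of ribosomal RNA, and many, though not all, of their host genes are broadly active. Of 21 such genes listed, 9 had member intervals, 4 had an interval that also lies near a coding TSS (Gas5, Snhg1, Snhg3 and Snhg9), 1 (Rian) had none and 7 were not found under these types in the annotation. The 9 genes had 20 intervals with 78.5 to 293 RPKM, 0 of them at an unadjusted p under 0.05 in either direction (beside 2.64% higher and 2.31% lower of all intervals), and a median log2 fold change of -0.039. Dancr (Peak_10666, chr5:74488827-74489363), whose GC and CCAAT boxes are printed above, had 665, 472 and 367 counts in CTL and 581, 468 and 523 in H2A.Z dKO. Per length this was 202, 189.9 and 194 RPKM in CTL and 184, 192 and 194 in H2A.Z dKO, overlapping, with a log2 fold change of -0.044 (SE 0.10) and a 95% confidence interval of -0.25 to 0.17, and -0.015 without CTL replicate 1. Snhg12 (Peak_8971) had 140.3, 151 and 139 RPKM in CTL and 149.8, 174 and 188 in H2A.Z dKO, a log2 fold change of 0.24 (SE 0.15), with every H2A.Z dKO library above CTL after TMM scaling, although in RPKM H2A.Z dKO replicate 1 lay just below CTL replicate 2. Snhg5 had 4 intervals, 3 of them overlapping, with log2 fold changes from -0.087 to 0.17, the latter 0.078 without H2A.Z dKO replicate 1. 5730588L14Rik counts here because it starts beside Snhg7 on the other strand, and the interval of Snhg7 itself (Peak_2819) had 119.8, 147 and 171 RPKM in CTL and 122, 133 and 118 in H2A.Z dKO.

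Host genes of microRNAs had 16 member intervals at 5 of 11 genes listed, with a median log2 fold change of 0.10. Of these, 14 of 16 were above 0, beside 20885 of the 39768 intervals of the table. Of the 16, 9 are the Dleu2 intervals described above, all highest in H2A.Z dKO replicate 1, so these values are not independent. At Mir17hg, the host of a microRNA cluster known from proliferating cells, Peak_31386 (chr14:115441317-115441622) had 123, 129.9 and 119 RPKM in CTL and 164, 133 and 178 in H2A.Z dKO. The groups did not overlap, and the log2 fold change was 0.35 (SE 0.14) at an unadjusted p of 0.023, the only one of the 16 under 0.05, beside 2.64% higher and 2.31% lower of all intervals. The second Mir17hg interval (Peak_31385) had 71.7, 99.0 and 80.6 RPKM in CTL and 134, 70.9 and 96.4 in H2A.Z dKO, overlapping, a log2 fold change of 0.29 (SE 0.23). Mir22hg (Peak_25134, chr11:75274086-75274230) had 268, 226 and 264 RPKM in CTL and 254, 227 and 269 in H2A.Z dKO, a log2 fold change of -0.016 (SE 0.15). Dnm3os, which lies inside Dnm3 (Peak_1836), had 89.4, 108 and 91.1 RPKM in CTL and 123, 112 and 92.3 in H2A.Z dKO, a log2 fold change of 0.19 (SE 0.17), and the 3 intervals of Carmn, known from smooth muscle, had log2 fold changes from 0.017 to 0.18 with overlapping groups. H19, Mirg, the Mir124a-1 host gene and the Mir9-3 host gene had no interval.

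Of 8 names listed as nuclear or abundant long noncoding RNAs, 3 had member intervals and 2 were not found under these types in the annotation. Malat1, an RNA of nuclear speckles, had 1 at its TSS (Peak_37943, 84 bp) and 1 upstream (Peak_37944, chr19:5803264-5803433). At the TSS it had 105, 65 and 50 counts in CTL and 104, 90 and 101 in H2A.Z dKO, or 204, 167 and 169 RPKM in CTL and 211, 235 and 239 in H2A.Z dKO. The groups did not overlap, with a log2 fold change of 0.33, a 95% confidence interval of -0.059 to 0.72 and an unadjusted p of 0.0927. The upstream interval had 175, 166 and 174 RPKM in CTL and 203, 156 and 143 in H2A.Z dKO and a log2 fold change of -0.027 (SE 0.17), and there the groups overlapped. Oip5os1 (Peak_4120, chr2:119419859-119420168) had 215, 192 and 204 RPKM in CTL and 180.1, 206 and 197 in H2A.Z dKO, a log2 fold change of -0.073 (SE 0.12) with a 95% confidence interval of -0.32 to 0.17. It was -0.11 once CTL replicate 2 was left out and -0.027 once CTL replicate 1 was. Its second interval (Peak_4121) had 105, 132 and 183 RPKM in CTL and 126, 149 and 128 in H2A.Z dKO, overlapping, a log2 fold change of -0.011 (SE 0.28). Pvt1, a neighbor of Myc (Peak_32013), had 99.9, 116 and 132 RPKM in CTL and 114, 89.5 and 159 in H2A.Z dKO, a log2 fold change of 0.086 (SE 0.26). Tug1 had intervals that also lie near a coding TSS, and Neat1 and Miat had none.

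Few of the imprinted, Hox and developmental genes listed had a member interval. Of 9 imprinted genes, 3 were not found under these types in the annotation and 1 had a member interval, Airn, the antisense RNA inside Igf2r that silences its locus on 1 parental allele (Peak_34713, chr17:12934062-12934297). It had 135, 162 and 126 RPKM in CTL and 126, 173 and 138 in H2A.Z dKO, overlapping, a log2 fold change of 0.038 (SE 0.16). H19, Meg3, Rian, Mirg and Nespas had no interval within 1 kb. Of 9 Hox cluster genes, 1 had member intervals, Hoxd3os1 inside Hoxd3, where Peak_3614 counted 20, 22 and 15 in CTL and 9, 15 and 16 in H2A.Z dKO, and Peak_3615 12, 12 and 8 in CTL and 13, 14 and 17 in H2A.Z dKO. The log2 fold changes of these 2, which lie side by side, were -0.62 (SE 0.31) and 0.34 (SE 0.31), of opposite sign. The first was -0.33 without H2A.Z dKO replicate 1, and the second was 0.21 without H2A.Z dKO replicate 3 and 0.22 without CTL replicate 1. Hotair, Hottip and 4 others had no interval. Of 13 genes listed as developmental, heart or muscle, 6 were not found under these types. Among these is Ccdc191, the RefSeq match of a listed synonym, which may not be a noncoding gene. Of the others, 5 had no interval, Fendrr had one near a coding TSS, and 1 had member intervals, Trp53cor1, also known as lincRNA-p21, which p53 induces beside Cdkn1a. Peak_35192 (chr17:29215844-29216191) had 95.4, 96.8 and 85.7 RPKM in CTL and 97.4, 131 and 144 in H2A.Z dKO, without overlap, a log2 fold change of 0.41 (SE 0.16), and Peak_35191 had 40.4, 33.0 and 63.5 RPKM in CTL and 70.1, 87.9 and 56.2 in H2A.Z dKO with overlapping groups, a log2 fold change of 0.68 (SE 0.28). Both are among the 26 members higher at an unadjusted p under 0.05 (beside 2.64% of all intervals), at 0.0157 and 0.0247.

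Genes tied to skeletal muscle were looked at after their values had been seen, so they are given as a description. linc-Myh, a noncoding gene of the fast myosin heavy chain cluster whose sequence is shown above, had 5 intervals. The one with the smallest p (Peak_24748, chr11:66933041-66933269) had 222, 101 and 110 counts in CTL and 297, 189 and 170 in H2A.Z dKO, or 158, 95.3 and 136 RPKM in CTL and 221, 181 and 148 in H2A.Z dKO, with a log2 fold change of 0.50 (SE 0.19). The groups overlapped, and the lowest of the 6 libraries was CTL replicate 2. Without CTL replicate 2 the log2 fold change was 0.31, and without H2A.Z dKO replicate 1 it was 0.30. Peak_24749, Peak_24750 and Peak_24751 share bases with it or with each other and had log2 fold changes of 0.39, 0.41 and 0.30 (0.23, 0.24 and 0.17 without CTL replicate 2, and for Peak_24750 0.19 without H2A.Z dKO replicate 1 and 0.61 without CTL replicate 1), and the separate upstream interval, Peak_24752, had a log2 fold change of 0.13 (SE 0.18), and with 1 library left out ranged from 0.032 without H2A.Z dKO replicate 2 to 0.33 without CTL replicate 1. Nctc1 (Peak_17056, chr7:149744445-149744646) had 193, 155 and 163 RPKM in CTL and 131, 187 and 193 in H2A.Z dKO, a log2 fold change of -0.018 (SE 0.16) with a 95% confidence interval of -0.36 to 0.32. Chrna1os, a noncoding gene beside the acetylcholine receptor gene Chrna1, had 223, 265 and 309.9 RPKM in CTL and 178, 269.7 and 235 in H2A.Z dKO at Peak_3602 and 54.9, 56.4 and 63.6 RPKM in CTL and 49.6, 83.6 and 90.7 in H2A.Z dKO at Peak_3603, with log2 fold changes of -0.21 and 0.35. With each library left out in turn the first ranged from -0.34 without CTL replicate 1 to -0.067 without H2A.Z dKO replicate 1, and the second from 0.17 without H2A.Z dKO replicate 3 to 0.57 without H2A.Z dKO replicate 1. At 1500011K16Rik, now named Mtln and known to encode a small mitochondrial protein, Peak_4290 had 100.4, 89.0 and 108 RPKM in CTL and 96.4, 103 and 112 in H2A.Z dKO, a log2 fold change of 0.071 (SE 0.16), which was 0.0025 once CTL replicate 2 was left out and 0.13 once CTL replicate 3 was. Its other interval, Peak_4289, had 97.1, 108 and 107 RPKM in CTL and 101, 71.0 and 93.4 in H2A.Z dKO, overlapping, with a log2 fold change of -0.21 (SE 0.22), which was -0.076 without H2A.Z dKO replicate 2 and -0.35 without replicate 1.

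**Figure D5:**
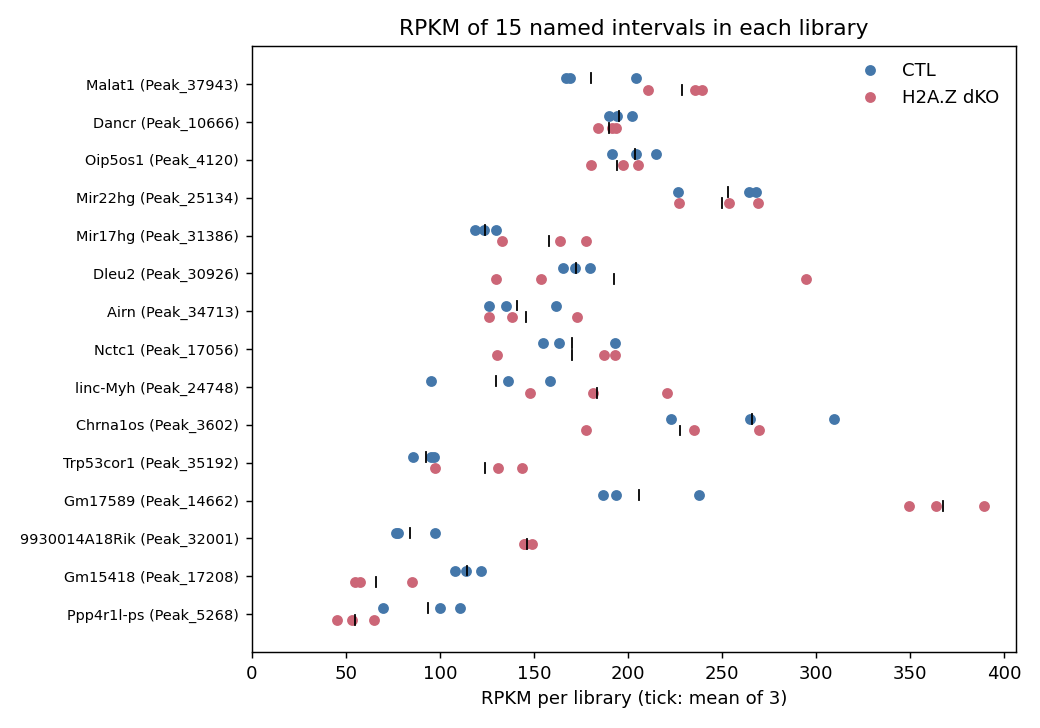
RPKM (x axis) of 15 named intervals in each CTL library (blue) and each H2A.Z dKO library (red), with a black tick at the mean of 3. The colors separate at Malat1, Mir17hg, Trp53cor1, Gm17589, 9930014A18Rik, Gm15418 and Ppp4r1l-ps and overlap in the other 8. Gm17589, 9930014A18Rik, Gm15418 and Ppp4r1l-ps were named for their small p, so the share that separates here does not describe the members as a set. After TMM scaling the groups did not overlap, in either direction, at 12.0% of the members, beside 10.8% of all intervals. The widest spread within a group is that of Dleu2, where 1 H2A.Z dKO library lies at 295 RPKM.

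Besides Mtln, RefSeq types other genes of the set as coding. Of the 307 genes, 203 were matched by symbol or synonym to RefSeq (names only, assembly GRCm38.p6), which types 164 as lncRNA, 24 as protein_coding and 15 otherwise. The 24 genes with a protein in RefSeq hold 37 members, among them Spcs3, a subunit of the signal peptidase, Oaz2, an inhibitor of ornithine decarboxylase, and Enho, which encodes a secreted peptide. These 37 had a median width of 197 bp, a median G+C content of 61.7% and a CpG ratio above 0.6 in 62.2%. Their median log2 fold change was 0.0010, and at an unadjusted p below 0.05 there were 2 of the 37 on the higher side and 0 on the lower, beside 2.64% and 2.31% of all intervals, and 1 of the 2 was at Spcs3 (Peak_17726, 128, 121 and 136 RPKM in CTL and 182, 155 and 169 in H2A.Z dKO).

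Short sequence motifs were counted in 300 bp of mm9 around each midpoint, on both strands, with exact letters. TATAAA was found at 60 of 534 members (11.2%), beside 4.13% of coding promoters, 10.1% of intergenic intervals and 7.31% of all intervals. GGGCGG was found at 40.8%, beside 65.5%, 17.3% and 41.5%, and CCAAT at 30.7%, beside 30.0%, 30.8% and 30.1%. The E-box CANNTG was present at 73.6% of members, beside 60.0%, 80.8% and 70.8%, and its form CAGCTG, which every CANNTG search also finds, at 22.3%, beside 16.7%, 28.9% and 23.4%. The MEF2 motif stood at 5.81%, beside 1.63%, 5.84% and 4.04%, and CCCTC, the core of the CTCF motif, at 72.8%, beside 77.6%, 65.2% and 71.4%. A match is a run of letters and not a bound site.

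Levels on both sides of the limits of the rule were as follows. The 29 intervals 900 to 1000 bp from a noncoding TSS, just inside, had a median of 136 RPKM, and the 20 that lay 1000 to 1100 bp away, just outside, 159 RPKM. The 33 members 1000 to 1500 bp from a coding TSS had a median of 148 RPKM, and the 115 intervals 500 to 1000 bp from one, which the rule leaves out, 144 RPKM. Counting by the edge of the interval gave 544 members, and using 500 bp to the noncoding TSS gave 412.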

How the data were processed

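ATAC-seq was analysed in 3 CTL and 3 H2A.Z dKO libraries, grouped by the sample labels, and other assays of the study were not analysed here. The labels name tibialis anterior nuclei purified by ultracentrifugation, the methods hind-limb muscle homogenized in a Dounce. The authors trimmed adapters with Trimmomatic, aligned to mm9 with Bowtie, removed duplicates with Picard, shifted fragment ends to the Tn5 binding event and extended them, called peaks with MACS2, merged regions and deposited raw counts of fragment ends per interval and library. They also deposited their own DESeq2 columns (log2 fold change, standard error, statistic, p-values), which were not used. Coordinates are given from 1, with starts in the table taken as counted from 0. The members and gene lists were chosen with earlier results of these data known.

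Counts of all 39768 intervals, unfiltered, were compared with edgeR 4.0.16 (TMM, robust quasi-likelihood test, no replicate block; biological coefficient of variation 0.126) run in R 4.3.3, and p-values were adjusted by Benjamini and Hochberg's method over the whole table. Standard errors were taken as the size of the log2 fold change over the root of the F statistic. Alternatives were DESeq2 1.42.0, limma voom 3.58.1, other scalings, at least 20 counts in every library, a replicate block, other rules for members, and each library left out in turn. The edgeR fit was tested on simulated data, and no result here rests on that. Same-numbered libraries were not paired, since their deviations had correlations of -0.095, -0.051 and -0.030. Near-identical copies were searched with blastn 2.17.0 and sequences read with pysam 0.24.0 in Python 3.11.15. Named are the 8 members of highest mean RPKM, the 3 of smallest p in each direction, the members of the listed genes (with values per library for up to 4 in a list, by level, and for others where a result turns on them) and the genes with most intervals. Genes tied to muscle, Gm5860, Gm11264, Gm13481, Spcs3 and the neighbors of Peak_14662 were chosen after their values were seen. Depth ranged from 3520008 to 6117245 counts per library, and a count of 20 or fewer gives wide intervals. Errors do not cover PCR copies left after duplicate removal.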

Additional observations from a re-analysis of the deposited data

How the results depend on the processing

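Under each alternative tried, 0 members passed an adjusted p of 0.05, the lowest adjusted p being 0.392 without H2A.Z dKO replicate 1. At an unadjusted p under 0.05 the main test gave 34 members (26 higher, 8 lower, beside 2.64% and 2.31% of all intervals) and DESeq2 gave 19 (15 higher, 4 lower, beside 1.06% and 0.842%). With at least 20 counts in every library, where 440 members were tested, 5 were lower (1.14%, beside 1.49% of the intervals tested). With the replicate block 23 members were higher and 8 lower, beside 2.29% and 2.13%, and the block changed no call at the adjusted threshold. With each library left out in turn, the count of lower members ranged from 5 to 14 (all intervals 1.24% to 3.71%), the median log2 fold change from 0.010 to 0.035 (0.016 with all), and the members with non-overlapping groups from 99 to 131 (18.5% to 24.5%, beside 18.1% to 24.9% of all intervals), against 64 with all libraries (12.0%, beside 10.8%), since fewer libraries overlap less often. The median RPKM of members divided by that of coding promoters was 0.911, and in CPM, which do not correct for width, it was 0.613. In 150 bp in place of 300 bp, the share of members with each motif was 6.55% for TATAAA, 19.3% for CCAAT, 31.3% for GGGCGG, 51.9% for CANNTG, 12.9% for CAGCTG, 3.18% for MEF2 and 51.9% for CCCTC, as a shorter window holds fewer letters.

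Of the 60 members whose values are printed, 39 kept the sign of their log2 fold change under every alternative tried and 21 changed it in at least 1 of the leave-one-out fits. The log2 fold changes ranged from -0.23 to 0.034 at Gm9783 (Peak_37954), -0.15 to 0.090 at BC042782 (Peak_8215), -0.0014 to 0.41 at 2410080I02Rik (Peak_38326), -0.20 to 0.26 at B230206L02Rik (Peak_25688), -0.096 to 0.0095 at C920006O11Rik (Peak_20767), -0.064 to 0.23 at A230028O05Rik (Peak_33624), -0.11 to 0.078 at Gm10433 (Peak_28124). They ranged from -0.089 to 0.056 at Mir22hg (Peak_25134), -0.50 to 0.029 at Dleu2 (Peak_30928), -0.12 to 0.24 at Dleu2 (Peak_30930), -0.088 to 0.15 at Airn (Peak_34713), -0.22 to 0.077 at Malat1 (Peak_37944), -0.21 to 0.19 at Oip5os1 (Peak_4121) and -0.12 to 0.12 at Nctc1 (Peak_17056). They ranged from -0.12 to 0.36 at Gm17589 (Peak_14663), -0.43 to 0.32 and -0.31 to 0.40 at Dleu2 (Peak_30922 and Peak_30926), -0.011 to 0.48 at Mir17hg (Peak_31385), -0.15 to 0.25 at Pvt1 (Peak_32013), and -0.023 to 0.37 and -0.033 to 0.13 at Carmn (Peak_37323 and Peak_37325). Peak_4121 (Oip5os1) also turned from -0.011 to 0.0081 and Peak_30922 (Dleu2) from 0.069 to -0.047 with limma voom. With no change of sign, values ranged from 0.062 to 0.30 at Dnm3os (Peak_1836), -0.16 to -0.011 at Snhg5 (Peak_20859), -0.35 to -0.096 at Snhg7 (Peak_2819), -0.81 to -0.26 at Gm13481 (Peak_3307) and -0.35 to -0.090 at 4930555B11Rik (Peak_3386). The cause was not tested. Depth limits short intervals, since 440 members had at least 20 counts in every library and the others did not.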

Other observations

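The rule kept to autosomes and left out 30 intervals near noncoding TSS of chromosome X, and their values are given here as a description. Among them are genes of the X inactivation center. The 2 intervals of Jpx (named Enox in the annotation), which activates Xist, had 137, 103 and 70 counts in CTL and 147, 72 and 90 in H2A.Z dKO at the larger one, with a log2 fold change of -0.13 (SE 0.20). Ftx had 6 intervals at its start sites with log2 fold changes from -0.15 to 0.12. Firre, a noncoding RNA that organizes nuclear architecture, had 147, 117 and 68 counts in CTL and 107, 127 and 110 in H2A.Z dKO, a log2 fold change of -0.033 (SE 0.19), and Kantr had a log2 fold change of -0.13 (SE 0.18). The only gene at an unadjusted p under 0.05 was 4933407K13Rik, lower in H2A.Z dKO at 2 overlapping intervals, beside 2.64% higher and 2.31% lower of all intervals of the table. The larger had 123, 68 and 61 counts in CTL and 55, 57 and 63 in H2A.Z dKO, a log2 fold change of -0.61 (SE 0.21) at an unadjusted p of 0.0068 and edgeR's adjusted p of 0.972.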
